A study of Mus musculus with 4 samples.

Results

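The genes described here move zinc across the plasma membrane, bind it in the cytosol or sense it: the importers Slc39a4, Slc39a5, Slc39a6, Slc39a10 and Slc39a14, the exporters Slc30a1 and Slc30a10, the metallothioneins Mt1 and Mt2, and their regulator Mtf1. Slc30a10 is listed with them as first described, though its product is since known to export manganese. These 10 genes of the 19938 measured were chosen by name for their function. Each had 1 probe set with 1 gene symbol, and its level is the log2 value that the authors made with RMA, a method that corrects, normalises and summarises Affymetrix probes.

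The study concerned ZIP7, the product of Slc39a7, which releases zinc from the endoplasmic reticulum and Golgi into the cytosol, and its need in the epithelium of the mouse small intestine. Crypt cells of adult mice given tamoxifen for 2 days were sorted by their Lgr5 reporter, and total RNA of each sort went onto 1 array. The Zip7 KO arrays labelled Lgr5-Hi and Lgr5-Med came from Zip7flox/flox mice, and the control arrays with these labels from Zip7flox/+ mice, so in the controls tamoxifen should remove 1 copy of the gene. All mice of both genotypes carried villin-CreERT2, which acts in the intestinal epithelium, and Lgr5-EGFP-ires-CreERT2, a reporter and second Cre in the Lgr5 gene. The titles name the second fraction Lgr5-Mid and the source names Lgr5-Med. How many animals made up an array is not stated in the labels. With 1 array in each of the 4 groups no difference was tested, no value carries an error, and precision is limited by the number of arrays.

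Several facts of the 4 arrays bear on every value below. Slc39a7 was at 9.02 in Zip7 KO and 8.92 in control cells labelled Lgr5-Hi, and at 8.22 in Zip7 KO and 8.61 in control cells labelled Lgr5-Med, and it is not known from the labels whether its probes fall inside the floxed part, so these values do not check the deletion. Lgr5 went against the fraction labels, with 7.93 and 11.24 in the Zip7 KO arrays labelled Lgr5-Hi and Lgr5-Med and 7.79 and 10.97 in the control arrays with these labels. The labels are kept as given, and the pairs of arrays compared between genotypes carry the same fraction label. Xist was at 5.59 and 5.43 in the Zip7 KO arrays and at 11.64 and 11.84 in the control arrays, while the Y-linked Eif2s3y was at 8.12 and 8.11 against 4.10 and 4.24, so sex and genotype cannot be told apart. The 7 epithelial markers, among them Epcam and Vil1, had mean levels between 11.98 and 12.18 on the 4 arrays, and of the 7 stromal and endothelial markers Pdgfra, Pecam1 and Cdh5 were below the floor on all of them. Col1a1, Col1a2, Col3a1 and Vim were above it on all 4, with Vim at 9.97 in Zip7 KO and 10.15 in control cells labelled Lgr5-Hi and at 8.23 and 8.05 in those labelled Lgr5-Med. The floor, percentile 95 of 1207 receptor genes for odours, pheromones and trace amines, which the intestine should not express, lay between 6.10 and 6.25, and all 10 zinc genes were above it on all 4 arrays.

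Cells hold nearly all their zinc bound to protein. ZIP proteins (the Slc39 family) bring zinc into the cytosol, ZnT proteins (the Slc30 family) take it out, and metallothioneins, small proteins rich in cysteine, hold and release it. MTF1, a zinc finger transcription factor that zinc itself activates, binds metal response elements in DNA and in mouse cells raises transcription of Mt1, Mt2 and Slc30a1. In the intestine ZIP4 takes zinc up from the lumen at the apical face of the enterocyte, ZIP5 and ZIP14 lie at its basolateral face, and ZnT1 passes zinc on towards the blood.

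The promoters of the exporters and of the metallothioneins are shown. These 2 pairs of genes were picked after their opposite directions in Zip7 KO cells were seen. MTF1 is known to act on at least Mt1, Mt2 and Slc30a1 through metal response elements. A link between such elements and the directions of these genes was not tested. Each sequence is the RefSeq window of GRCm38.p6 from 250 bases before to 50 after an annotated start, on the plus strand, 5′ to 3′. Capitals mark the core of the metal response element, searched as TGCACNC and TGCGCNC on both strands, so that a match on the opposite strand appears as its reverse complement.
Mt1, chr8:94178839-94179138: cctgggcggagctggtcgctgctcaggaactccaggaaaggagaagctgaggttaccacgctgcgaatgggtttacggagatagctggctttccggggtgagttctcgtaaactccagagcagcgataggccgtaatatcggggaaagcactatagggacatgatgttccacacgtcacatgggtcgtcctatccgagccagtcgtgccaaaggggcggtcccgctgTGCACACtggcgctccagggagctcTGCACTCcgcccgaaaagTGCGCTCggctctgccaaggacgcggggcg
Mt2, chr8:94172368-94172667: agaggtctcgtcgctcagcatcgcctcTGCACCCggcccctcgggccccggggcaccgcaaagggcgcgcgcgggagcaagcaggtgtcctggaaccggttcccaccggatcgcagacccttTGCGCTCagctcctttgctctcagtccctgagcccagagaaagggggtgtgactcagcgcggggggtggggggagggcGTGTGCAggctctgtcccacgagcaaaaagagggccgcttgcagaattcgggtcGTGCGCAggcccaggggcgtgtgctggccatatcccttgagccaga
Slc30a1, chr1:191906531-191906830: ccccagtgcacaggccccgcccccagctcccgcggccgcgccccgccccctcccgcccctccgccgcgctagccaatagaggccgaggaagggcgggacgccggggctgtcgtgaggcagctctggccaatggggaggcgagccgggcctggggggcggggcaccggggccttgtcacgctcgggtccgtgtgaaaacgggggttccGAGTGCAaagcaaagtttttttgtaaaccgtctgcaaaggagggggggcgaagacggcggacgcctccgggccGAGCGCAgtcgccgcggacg
Slc30a10, chr1:185454598-185454897: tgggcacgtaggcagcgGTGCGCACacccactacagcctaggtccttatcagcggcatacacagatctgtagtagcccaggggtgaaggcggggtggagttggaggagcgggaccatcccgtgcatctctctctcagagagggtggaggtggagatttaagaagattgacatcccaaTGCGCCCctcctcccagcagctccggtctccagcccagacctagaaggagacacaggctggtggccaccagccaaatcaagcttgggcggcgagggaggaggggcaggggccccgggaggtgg

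The Mt2 window held 4 separate cores, 2 of them on each strand, and the Mt1 window held 3, all on the plus strand. The Slc30a1 window held 2, both on the opposite strand, with TGCACTC at position -43 from the start. The Slc30a10 window held 2, of which the distal one is a pair of overlapping matches on opposite strands. Of all 32851 windows in the table, 25.7% held at least 1 such core, 6.14% at least 2, 1.31% at least 3 and 0.295% at least 4. Taken singly, TGCACNC was present in 12.6% of windows and TGCGCNC in 15.4%. Of the other genes, Slc39a5 had 1 core in 1 of its windows, and the windows of Slc39a10 and Mtf1 held none of these letters. Slc39a4, Slc39a6 and Slc39a14 had no window and were not searched. A gene can have other annotated starts. The RefSeq genes Mt1 and Slc30a1 begin at 94178883 and 191906697, inside the printed windows but before the start used. All cores marked for Mt1 and Slc30a1 lie after these gene starts. Bases outside a window were not searched. Windows of one gene can overlap, and a match is a description of the letters only.

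**Figure D1:**
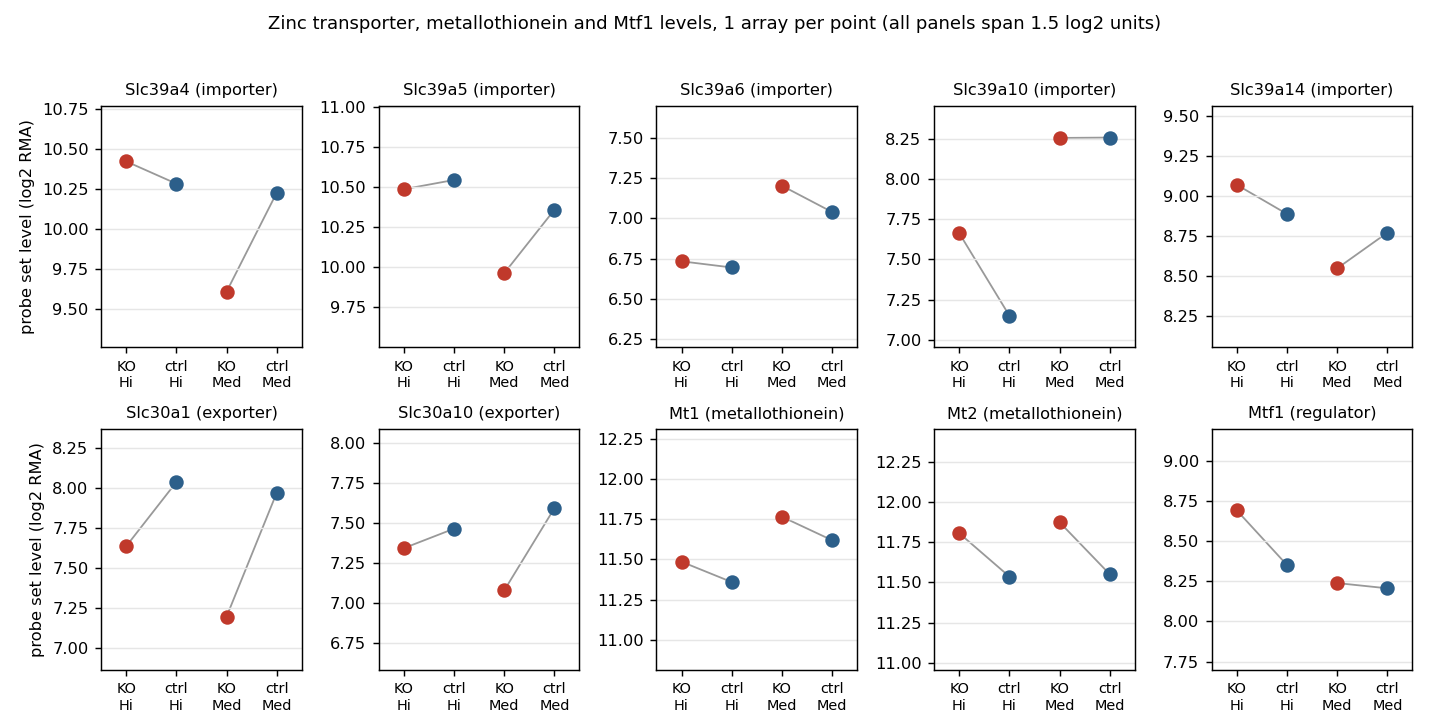
Level (log2 RMA) of each of the 10 genes on the 4 arrays, with Zip7 KO (KO) in red and control (ctrl) in blue, and Hi and Med for the fraction labels Lgr5-Hi and Lgr5-Med; a grey line joins the arrays compared between genotypes. Slc30a1 and Slc30a10 were lower and Mt1 and Mt2 higher in Zip7 KO under both labels, and each panel has its own offset over the same span of 1.5.

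The exporters were lower in Zip7 KO cells under both fraction labels. Slc30a1 encodes ZnT1, the main zinc exporter of the plasma membrane. It was at 7.64 in Zip7 KO and 8.04 in control cells labelled Lgr5-Hi, and at 7.20 in Zip7 KO and 7.97 in control cells labelled Lgr5-Med. Both Zip7 KO arrays thus lay below both control arrays, an order whose share among all genes was not counted. The control arrays were within 0.07 of each other. The differences were -0.40 (1.32-fold lower) and -0.77 (1.71-fold lower). Of all genes above the floor in the comparison, 2.98% had a lower difference in the cells labelled Lgr5-Hi and 1.12% in those labelled Lgr5-Med.

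Slc30a10 encodes ZnT10, first described as a zinc transporter and since known as an exporter of manganese. Its level was 7.34 in Zip7 KO and 7.46 in control cells labelled Lgr5-Hi, and 7.08 in Zip7 KO and 7.59 in control cells labelled Lgr5-Med. Here too both Zip7 KO arrays were below both control arrays, and the share of all genes in that order was not counted. The differences were -0.12 between the arrays labelled Lgr5-Hi and -0.51 (1.43-fold lower) between those labelled Lgr5-Med. Among all genes 22.6% lay below the first of these differences and 2.76% below the second.

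The metallothioneins were higher in Zip7 KO cells, by small amounts of like size under both labels. The genes are next to each other on chromosome 8, with 0 other genes between them in the RefSeq table. Mt1 was at 11.49 in Zip7 KO and 11.36 in control cells labelled Lgr5-Hi, and at 11.77 in Zip7 KO and 11.62 in control cells labelled Lgr5-Med. Its differences were 0.13 (1.09-fold) and 0.15 (1.11-fold), with 71.1% and 83.0% of genes below them. The fraction labels separated Mt1 by more than the genotypes did, and both arrays labelled Lgr5-Med were above both labelled Lgr5-Hi. How many of all genes had that order was not counted.

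Mt2 was at 11.81 in Zip7 KO and 11.54 in control cells labelled Lgr5-Hi, and at 11.88 in Zip7 KO and 11.55 in control cells labelled Lgr5-Med. Both Zip7 KO arrays were above both control arrays, an order whose share among all genes was not counted. The control arrays were almost level, and the differences between genotypes were 0.27 (1.21-fold) and 0.32 (1.25-fold). Of all genes 89.9% had a lower difference than Mt2 in the cells labelled Lgr5-Hi and 96.7% in those labelled Lgr5-Med.

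Mtf1, the transcription factor that controls the metallothioneins and Slc30a1, was at 8.69 in Zip7 KO and 8.35 in control cells labelled Lgr5-Hi, and at 8.24 in Zip7 KO and 8.21 in control cells labelled Lgr5-Med. Its transcript was higher by 0.34 (1.27-fold) under the label Lgr5-Hi, with 94.0% of genes below, and by 0.03 under Lgr5-Med. MTF1 is activated by zinc at the level of the protein, which these arrays do not measure.

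**Figure D2:**
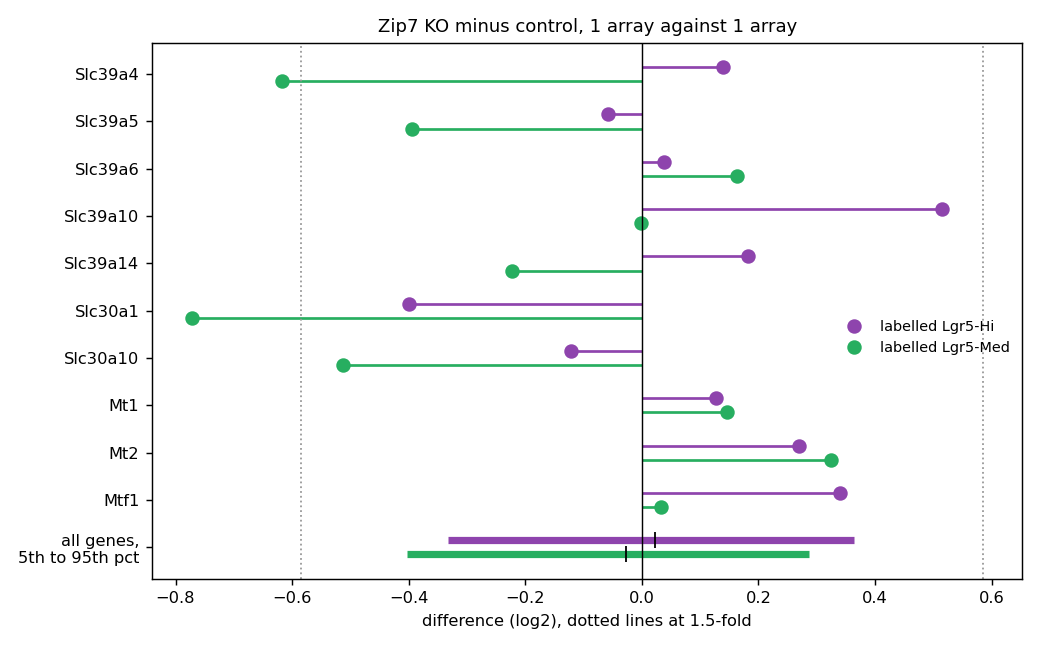
Difference (log2) between the Zip7 KO and the control array for each gene under the label Lgr5-Hi (purple) and Lgr5-Med (green), with dotted lines at 1.5-fold and, at the foot, the 5th to 95th percentile of all genes with their median as a tick. Slc30a1 at -0.77 and Slc39a4 at -0.62, both under Lgr5-Med, were the differences past the dotted lines, while Mt1 and Mt2 lay to the right of 0 under both labels.

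Among the importers, those of the mature enterocyte were lower in Zip7 KO cells labelled Lgr5-Med. Slc39a4 encodes ZIP4, whose loss in humans causes the inherited zinc deficiency acrodermatitis enteropathica. It was at 10.42 in Zip7 KO and 10.28 in control cells labelled Lgr5-Hi, and at 9.61 in Zip7 KO and 10.23 in control cells labelled Lgr5-Med. The Zip7 KO array labelled Lgr5-Med stood apart, and the other 3 arrays lay between 10.23 and 10.42. The differences were 0.14 and -0.62 (1.53-fold lower), and 1.78% of genes were below the second.

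Slc39a5 encodes ZIP5, which lies at the basolateral membrane of enterocytes. Its level was 10.49 in Zip7 KO and 10.54 in control cells labelled Lgr5-Hi, and 9.96 in Zip7 KO and 10.36 in control cells labelled Lgr5-Med. As with Slc39a4 the Zip7 KO array labelled Lgr5-Med was the lowest, and the differences were -0.06 and -0.40 (1.32-fold lower). Slc39a14 encodes ZIP14, which also carries iron and manganese and is known in mouse liver to be induced by ER stress. It was at 9.07 in Zip7 KO and 8.89 in control cells labelled Lgr5-Hi, and at 8.55 in Zip7 KO and 8.77 in control cells labelled Lgr5-Med. Its differences of 0.18 and -0.22 had opposite signs. Hspa5, the main ER chaperone, was at 13.09 in Zip7 KO and 12.48 in control cells labelled Lgr5-Hi and at 12.39 and 12.14 in those labelled Lgr5-Med. A link between Hspa5 or ER stress and the level of Slc39a14 was not tested.

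Slc39a6 and Slc39a10 encode the closely related ZIP6 and ZIP10, which can join in one complex. Slc39a10 was at 7.66 in Zip7 KO and 7.15 in control cells labelled Lgr5-Hi, and at 8.26 in both Zip7 KO and control cells labelled Lgr5-Med. Its difference of 0.51 (1.43-fold higher) under the label Lgr5-Hi was above that of 98.4% of genes, and no other zinc gene of the 10 was as much higher in Zip7 KO under either label. In mouse cells MTF1 is known to restrain Slc39a10 when zinc is plentiful. Slc39a6 was at 6.73 in Zip7 KO and 6.69 in control cells labelled Lgr5-Hi, and at 7.20 in Zip7 KO and 7.04 in control cells labelled Lgr5-Med, close to the floor of the arrays, with differences of 0.04 and 0.16.

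Counted together under the label Lgr5-Hi, 7 of the 10 genes were higher and 3 lower in Zip7 KO, with a median difference of 0.13 beside 0.02 over the 11988 genes compared, of which 55.0% were higher. None of the 10 was past 1.5-fold, a size that 1.08% of all genes passed upwards and 0.926% downwards. Under the label Lgr5-Med 4 were higher and 6 lower, with a median of -0.11 beside -0.03 over 12243 genes, of which 44.1% were higher, close to the share among the 10. Slc39a4 and Slc30a1 were at least 1.5-fold lower there, as were 2.1% of all genes, and none was at least 1.5-fold higher, as were 0.425%. When each array was centred on its median, Slc39a4 was at -0.55 and the count of lower genes was 1. None of the 10 was past 2-fold in either genotype comparison. That size was passed by 0.25% of all genes upwards and 0.234% downwards under Lgr5-Hi, and by 0.0653% and 0.621% under Lgr5-Med.

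Markers of other cells differed between the same arrays. All 14 enterocyte markers were lower in Zip7 KO cells labelled Lgr5-Med, with a median of -0.47 and a range from -0.93 to -0.09, and their mean level was 10.90 in Zip7 KO against 11.39 in control. Under the label Lgr5-Hi 7 were higher and 7 lower, and the mean levels were 11.34 in Zip7 KO and 11.32 in control. The differences of Slc39a4 and Slc39a5 lay within the range of these markers under both labels, and 5 markers (Alpi, Enpep, Krt20, Slc51a and Slc51b) were lower than Slc39a4 under Lgr5-Med. In bulk RNA, fewer cells of a type and less RNA per cell cannot be told apart.

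All 8 Paneth cell markers were lower in Zip7 KO under both labels, with medians of -0.83 under Lgr5-Hi and -1.50 under Lgr5-Med. All 9 lymphocyte markers were lower too, with medians of -1.07 and -1.33. The mean level of the lymphocyte markers was 6.83 in Zip7 KO and 7.80 in control cells labelled Lgr5-Hi, and 6.99 in Zip7 KO and 8.24 in control cells labelled Lgr5-Med. In each Zip7 KO array 2 of the 9, Ptprc and Cd3g, were at or below the floor, and none was in the control arrays. The 7 epithelial markers had medians of 0.10 and 0.05. Of 8 enteroendocrine markers 7 were lower in Zip7 KO under Lgr5-Hi (median -0.41) and 4 under Lgr5-Med (-0.09). Among 6 goblet markers 3 were lower under Lgr5-Hi (0.06) and 5 under Lgr5-Med (-0.24). For 5 tuft cell markers 4 were lower under Lgr5-Hi (-0.05) and all 5 higher under Lgr5-Med (0.17). The part of any of these cells in the lower Slc30a1, Slc30a10, Slc39a4 and Slc39a5 was not tested.

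**Figure D3:**
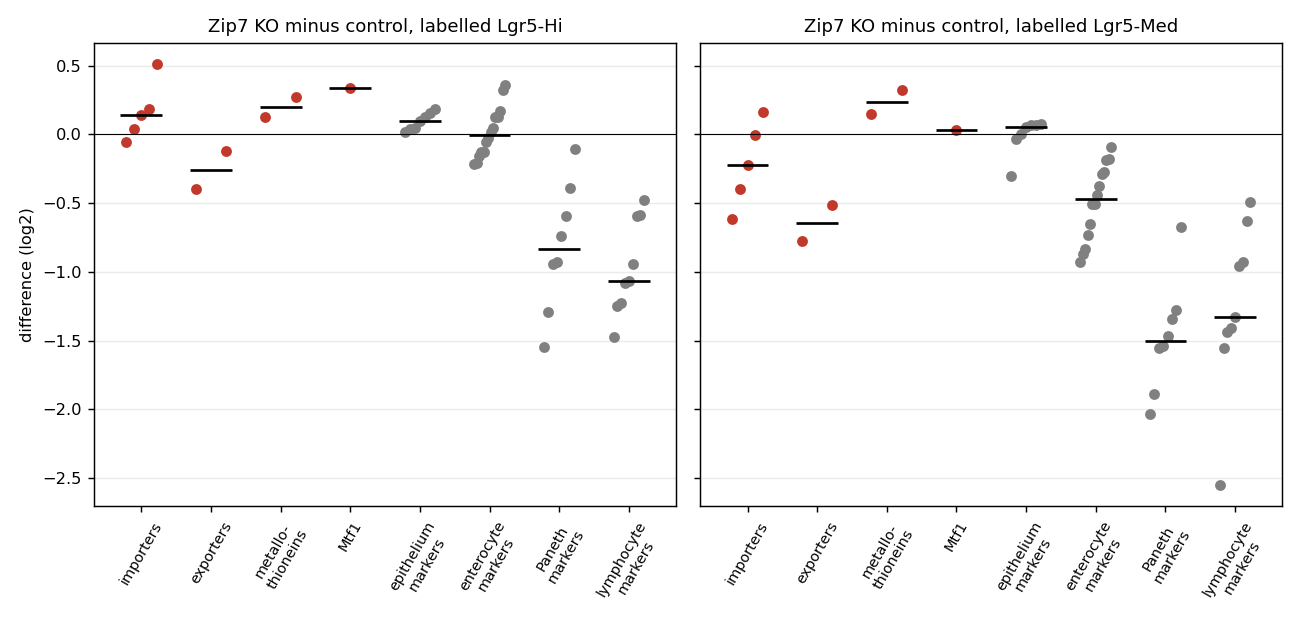
Difference (log2) between the Zip7 KO and the control array under the label Lgr5-Hi (left) and Lgr5-Med (right), 1 point per gene, for the zinc genes in red and for marker lists in grey, with black bars for medians. The enterocyte markers lay around 0 on the left and all below 0 on the right (median -0.47), and the Paneth and lymphocyte markers were below 0 on both sides.

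The fractions were compared within each genotype from the same 4 arrays, so these differences are not independent of those above. Slc39a10 was lower under the label Lgr5-Hi in both genotypes, by -0.59 (1.51-fold) in Zip7 KO and by -1.11 (2.16-fold) in control cells. Of all genes 0.33% were below the control value. It shared this direction with the 8 stem cell markers, all of which were lower under the label Lgr5-Hi, with mean levels of 8.83 and 10.4 in the Zip7 KO arrays labelled Lgr5-Hi and Lgr5-Med and of 8.93 and 10.4 in the control arrays. Slc39a6 had the same direction, at -0.47 in Zip7 KO and -0.35 in control cells, and so had Mt1, at -0.28 and -0.26. Mt2 was almost level between fractions, at -0.07 in Zip7 KO and -0.01 in control cells.

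The other importers and the exporter Slc30a1 were higher under the label Lgr5-Hi, by more in Zip7 KO than in control cells. Slc39a4 differed by 0.81 (1.76-fold) in Zip7 KO and by 0.06 in control cells, Slc39a5 by 0.52 and 0.19, Slc39a14 by 0.52 and 0.12, and Slc30a1 by 0.44 and 0.07. Mtf1 differed by 0.45 in Zip7 KO and 0.14 in control cells. These gaps between genotypes were not tested. Markers of mature cells moved with the fractions too. Of the 14 enterocyte markers 13 were higher under Lgr5-Hi in Zip7 KO cells and 6 in control cells, with medians of 0.34 and -0.02. All 8 Paneth markers were higher in both genotypes, with medians of 1.60 in Zip7 KO and 0.95 in control cells, and so were all 6 goblet and all 8 enteroendocrine markers, with medians of 1.27 and 1.06 and of 2.26 and 2.24. The part of these cells in the differences of the zinc genes was not tested. In Zip7 KO cells 1 of the 10, Slc39a4, was at least 1.5-fold higher under Lgr5-Hi and 1, Slc39a10, at least 1.5-fold lower, beside 5.9% and 3.56% of 12114 genes. None of the 10 was past 2-fold there, a size that 1.87% of genes passed upwards and 0.751% downwards. In control cells Slc39a10 was the only one of the 10 at least 1.5-fold lower, beside 3.14% of 12248 genes, and at least 2-fold lower, beside 0.523%. None was at least 1.5-fold higher, beside 2.3%, or at least 2-fold higher, beside 0.669%. The medians of the 10 were 0.35 in Zip7 KO and 0.02 in control cells, beside -0.0045 and -0.04 over all genes.

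**Figure D4:**
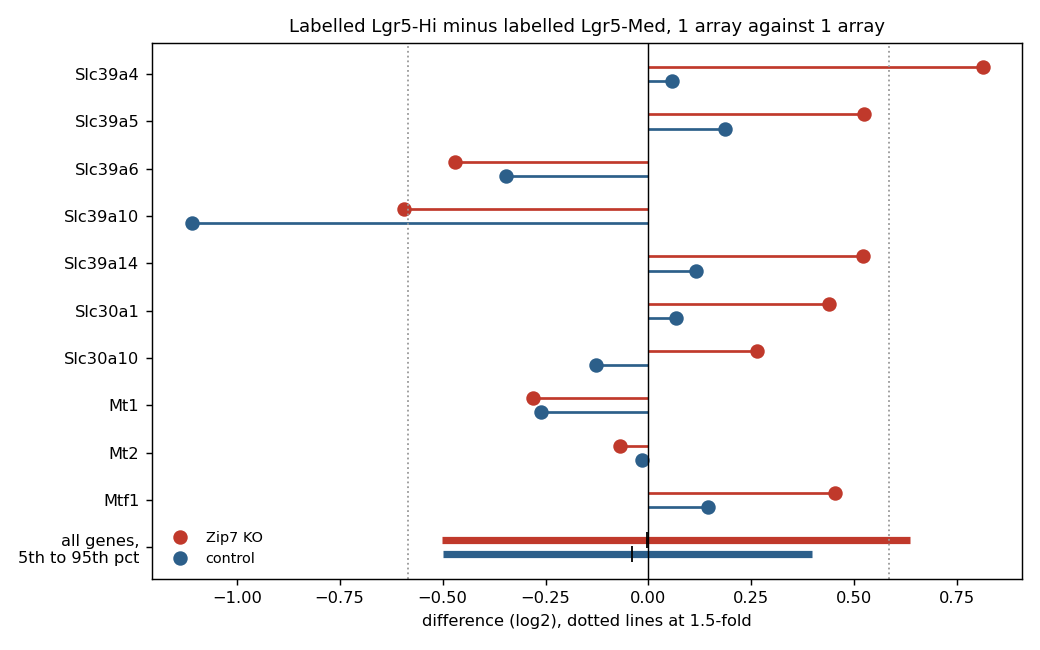
Difference (log2) between the arrays labelled Lgr5-Hi and Lgr5-Med for each gene in Zip7 KO (red) and control (blue) cells, with dotted lines at 1.5-fold and the 5th to 95th percentile of all genes at the foot. Slc39a10 reached -1.11 in control cells, and Slc39a4 stood at 0.81 in Zip7 KO and 0.06 in control cells.

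Over the 4 arrays Slc39a10 had the widest range of the 10 genes, 1.11, followed by Slc30a1 with 0.84 and Slc39a4 with 0.81. Mt2 had the narrowest, 0.34, and the median over all genes above the floor on at least 1 array was 0.32. In Slc39a4, Slc39a5, Slc39a14, Slc30a1 and Slc30a10 the lowest of the 4 arrays was Zip7 KO labelled Lgr5-Med, and in Slc39a6, Mt1 and Mt2 that array was the highest. The share of all genes lowest or highest on that array was not counted. Of all genes compared, 55.8% were lower there than in control cells labelled Lgr5-Med. Slc39a10 was highest on both arrays labelled Lgr5-Med, which were level, and Mtf1 was highest in Zip7 KO labelled Lgr5-Hi. Without replicates, no step in these orders can be set against a spread.

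Other zinc genes were counted in the same way. Of the remaining 19 ZIP, ZnT and metallothionein genes 16 were above the floor, and Slc39a12, Slc30a8 and Mt4 were below it on all 4 arrays. Under the label Lgr5-Hi 12 of the 16 were higher and 4 lower in Zip7 KO, with a median of 0.08, and under Lgr5-Med 7 were higher and 9 lower, with a median of -0.04. Of all genes 55.0% were higher under Lgr5-Hi and 44.1% under Lgr5-Med, the latter close to the share among the 16. None of the 16 was past 1.5-fold in either, beside the shares of all genes given above. The extremes were Slc30a7, a transporter of the early secretory pathway, at 0.40 and Slc30a2, a vesicular transporter, at -0.35 under Lgr5-Hi, and Slc39a8, which imports zinc and manganese, at 0.23 and the deleted gene Slc39a7 at -0.39 under Lgr5-Med. Between fractions, Slc39a7 (0.81) and Slc30a7 (0.65) were at least 1.5-fold higher under Lgr5-Hi in Zip7 KO cells, as were 5.9% of all genes. None of the 16 was past that size in control cells, where 2.3% of all genes passed it upwards and 3.14% downwards.

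Among 5 other genes known to depend on MTF1 in mouse, 4 were above the floor and Pgf was below it on all arrays. Selenow, a small selenoprotein, was at 9.40 in Zip7 KO and 9.10 in control cells labelled Lgr5-Hi, and at 9.17 in Zip7 KO and 8.85 in control cells labelled Lgr5-Med. Its differences of 0.30 and 0.32 stood beside the 0.27 and 0.32 of Mt2. Csrp1, a LIM domain protein, was at -0.20 and -0.11, Gclc, which begins glutathione synthesis, at 0.17 and -0.02, and Ndrg1, a stress-responsive gene, at 0.26 and -0.38. Of the 4, 3 were higher in Zip7 KO under Lgr5-Hi and 1 under Lgr5-Med, beside 55.0% and 44.1% of all genes. None was past 1.5-fold between genotypes, beside the shares of all genes given above. Between fractions, Ndrg1 was higher under the label Lgr5-Hi by 1.21 in Zip7 KO and by 0.58 in control cells. The first is past 2-fold, a size that 1.87% of all genes passed upwards there.

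The genes whose pattern was most like that of a zinc gene were sought among 11293 genes above the floor on all 4 arrays, by the Euclidean distance between log2 values centred on each gene's mean. For Slc30a1 these were Irf1, a transcription factor of the interferon response, Aldh1l1, an enzyme of folate metabolism, and Xdh, xanthine dehydrogenase, at distances from 0.078 to 0.095. For Slc39a4 they were the intestinal alkaline phosphatase Akp3, the transcription factor Creb3l3 and the kinesin light chain Klc4, at 0.065 to 0.077. For Mt1 they were Cetn2, Prpf4 and Exoc6, at 0.018 to 0.021. With 4 points per gene such likeness is a description.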

How the data were processed

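Per the labels, biotinylated cDNA from RNA of 4 sorted cell populations was hybridised to Affymetrix arrays, 1 per group. The deposited log2 values were made by the authors with RMA, per the submitters' processing notes; the log base was taken from the values, which lay between 3.08 and 14.6. The software, annotation and genome build are not stated in the labels or the file, so RefSeq GRCm38.p6 served for names, gene order and promoter windows, and the coordinates printed are those of its windows, not of probes.

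Of 35557 probe sets, 21789 had 1 gene symbol in the platform annotation and gave 19938 genes, each at its probe set with the highest mean. All 10 genes matched RefSeq, and 0 columns were left out. Arrays correlated with r from 0.983 to 0.990 across probe sets, which are not independent replicates. Genes under the floor on both arrays of a comparison were left out of it, as were the receptor genes. Differences were taken on the log2 scale and counted past 1.5-fold and 2-fold, with no p-value. The genes named were all 10 members, the listed MTF1-dependent genes and the 3 nearest patterns. Listed zinc genes were named if past 1.5-fold or at the extremes (the latter chosen after their values were seen). Slc39a3, Mt3 and Hspa5 were named outside this rule, as were genes and markers that describe the arrays. Members and lists were chosen with earlier results of these data known. Alternatives were quantile normalisation, median centring, loess (span 0.3), the mean of probe sets and floors at percentiles 90 and 99. Code was tested on simulated data; Python 3.11.15, numpy 2.4.6, pandas 2.3.3 and statsmodels 0.14.6 were used.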

Additional observations from a re-analysis of the deposited data

Results flagged for a closer look

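Slc39a4 and Slc39a14 differed between Zip7 KO and control in opposite directions under the fraction labels. Slc39a4 was at 0.14 under Lgr5-Hi and -0.62 under Lgr5-Med, and Slc39a14 at 0.18 and -0.22. Slc30a10 differed between the fraction labels in opposite directions by genotype, with Lgr5-Hi minus Lgr5-Med at 0.26 in Zip7 KO and -0.13 in control cells. Each rests on 1 array per group, and the difference was not tested.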

How the results depend on the processing

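Of the 40 differences (10 genes in 4 comparisons), 37 kept their sign under all 6 alternatives, those of Slc30a1 and of Slc30a10 among them. Between genotypes, Slc30a1 ranged from -0.44 to -0.40 under Lgr5-Hi and from -0.78 to -0.70 under Lgr5-Med. Mt2 ranged from 0.19 to 0.27 and from 0.27 to 0.39 under these labels, and Mt1 from 0.05 to 0.13 and from 0.10 to 0.22. The 3 that turned sign were small: Slc39a6 in Zip7 KO against control under Lgr5-Hi, Slc39a10 in the same under Lgr5-Med, and Mt2 between fractions in control cells. Median centring brought the count of genes past 1.5-fold under Lgr5-Med to 1, with Slc39a4 at -0.55. The medians over the 10 genes kept their signs. The mean of probe sets cannot alter these genes, each of which has 1 probe set. The floors at percentiles 90 and 99 kept all 10 genes in every comparison and so left their values as they were. Only quantile normalisation, median centring and loess could therefore turn a sign. No replicate could be left out, since each group has 1 array. No paired analysis was possible because the labels give no replicate numbers by which to pair arrays. A linear model with terms for genotype and fraction label, which would keep 1 residual degree of freedom, was not run. Slc39a6, at 6.69 to 7.20 against floors of 6.10 to 6.25, was the gene nearest to the background.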

Other observations

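The genotype difference of cells labelled Lgr5-Hi, less that of cells labelled Lgr5-Med, was above 0 in 7 of the 10 genes, with a median of 0.35, beside 7429 of 12404 genes and a median of 0.05 overall. Among the marker lists, enterocyte markers were above 0 in 14 of 14 cases (median 0.48), Paneth markers in 8 of 8 (0.59), lymphocyte markers in 9 of 9 (0.18) and goblet markers in 5 of 6 (0.34), whereas stem cell and enteroendocrine markers were in 2 of 8 each (-0.12 and -0.16) and tuft cell markers in 0 of 5 (-0.39). Slc39a4 had the largest value of the 10, 0.76, above that of 99.1% of genes, and Slc39a10 followed at 0.52, above 96.6%. Mt1 and Mt2 were at -0.02 and -0.05. None of these values was tested.

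Slc39a3, a ZIP importer, was lower in Zip7 KO under both labels, at -0.18 and -0.20, and Slc39a8 higher, at 0.19 and 0.23. Mt3, a metallothionein best known from brain, was at 7.94 in Zip7 KO and 8.28 in control cells labelled Lgr5-Hi and at 8.05 in Zip7 KO and 7.84 in control cells labelled Lgr5-Med, so that its direction was opposite under the labels, which was not tested. These genes were named after their values were seen.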
